A study of Rattus norvegicus with 15 samples.

Results

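The genes described here are markers of dividing cells and inhibitors of the cell cycle, followed in single molar germs of the rat between the bud and the following stages. The 10 genes were Mki67, Top2a, Pcna, Cdk1, Ccna2, Ccnd1, Ccnd2, Cdkn1a, Cdkn1b and Cdkn1c, among 14185 genes in the count table. Cdkn1a was found through the study's gene tables and the others by their mouse Ensembl identifiers. All 10 had a row and passed the filter on low counts. The series holds 15 RNA-seq libraries from DA/HanRj rat embryos, each made from 1 dissected tooth germ, and the labels name no mutant and no treatment, and give wild type as the genotype of the E18 embryos. The groups were 5 teeth at E15 (labelled E15.5, a bud stage), 5 at E17 (labelled E17.5, a cap stage) and 5 at E18, and the E18 teeth were labelled lower first molars whereas the E15 and E17 teeth were labelled only as molar 1. E17 replicates 1 and 2 were the left and right teeth of the same embryo, so the p-values at E17 treat these as separate samples although they share an embryo. The titles carry a different code for each stage, and the labels do not say what the codes mean. Stage therefore cannot be told apart from anything else the codes may mark, such as litter or preparation. The study describes rat teeth of E15 and E17 only, so E18 may also differ in how it was processed.

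A cell that divides passes through a phase of DNA synthesis and a phase of mitosis, and the passage is driven by cyclins bound to cyclin-dependent kinases. The inhibitors of the Cip/Kip family, encoded by Cdkn1a (p21), Cdkn1b (p27) and Cdkn1c (p57), bind these kinases and can hold the cycle in G1. In the developing tooth, the primary enamel knot is a signalling centre of the cap stage epithelium whose cells do not divide and express Cdkn1a, while the cells around it keep dividing. A bulk library of a whole germ sums all of these cells, and fewer cells of a type and less RNA per cell cannot be told apart in it.

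Library totals ran from 10993502 to 27571541 counts. All 7 epithelial and 9 mesenchymal tooth markers that could be matched were counted in every library, with a lowest count of 487 for the former and 441 for the latter. E18 replicate 3 stood apart: 17.4% of 11219 genes were more than 1 log2 unit lower in it than the mean of the other E18 teeth, against 0.125 to 2.73% in the other 14 libraries. E18 replicate 1 had the most genes above the others of its stage by that margin, 3.57%, and E15 replicate 3 had the 2.73%. Tests of the 10 genes that include E18 are therefore given with and without E18 replicate 3 where it moves the value.

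Promoters of 6 of the 10 genes (Mki67, Top2a, Pcna, Cdk1, Cdkn1a and Cdkn1b) were in RefSeq's table for the GRCr8 build, and those of Ccna2, Ccnd1, Ccnd2 and Cdkn1c were not. Each window is that of the first entry under the gene's symbol, and any other start of the gene was not examined. The 250 bases before the start of 3 proliferation genes and of Cdkn1a are printed because these genes carry the contrasts described below: Mki67 and Top2a were low together in a single tooth, Cdk1 was not, and Cdkn1a differed between stages. Capitals mark CCAAT (the CCAAT box, or ATTGG on the other strand), TTTGAA (the core of the cell cycle homology region, CHR, or TTCAAA on the other strand) and TTTCGCGC (an E2F-type site, either strand).
Mki67 (chr1:199952594-199952843, minus strand): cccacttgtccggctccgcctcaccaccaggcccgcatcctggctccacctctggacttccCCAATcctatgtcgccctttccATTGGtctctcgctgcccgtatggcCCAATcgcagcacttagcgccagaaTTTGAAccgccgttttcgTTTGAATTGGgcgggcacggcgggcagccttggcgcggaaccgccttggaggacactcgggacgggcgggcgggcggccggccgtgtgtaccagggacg
Top2a (chr10:84473094-84473343, minus strand): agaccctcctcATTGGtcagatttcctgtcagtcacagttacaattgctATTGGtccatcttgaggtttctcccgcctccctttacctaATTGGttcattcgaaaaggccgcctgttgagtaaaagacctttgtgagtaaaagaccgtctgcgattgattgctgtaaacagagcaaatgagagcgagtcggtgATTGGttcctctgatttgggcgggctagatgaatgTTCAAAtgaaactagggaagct
Cdk1 (chr20:19265043-19265292, plus strand): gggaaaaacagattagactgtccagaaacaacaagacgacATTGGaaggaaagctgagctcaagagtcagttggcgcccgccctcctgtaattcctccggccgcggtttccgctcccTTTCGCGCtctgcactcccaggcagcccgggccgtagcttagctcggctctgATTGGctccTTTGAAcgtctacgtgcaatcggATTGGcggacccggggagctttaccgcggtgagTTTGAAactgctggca
Cdkn1a (chr20:7150682-7150931, plus strand): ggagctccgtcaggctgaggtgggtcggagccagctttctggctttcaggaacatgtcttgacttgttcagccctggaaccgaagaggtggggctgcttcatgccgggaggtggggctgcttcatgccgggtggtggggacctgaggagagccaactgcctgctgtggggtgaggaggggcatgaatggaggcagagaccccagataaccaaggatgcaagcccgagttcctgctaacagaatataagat

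Mki67 and Top2a held 4 CCAAT matches each and Cdk1 held 3, while 2.52% of 33469 promoters of the same length held at least 3. TTTGAA was present 2 times in Mki67, 1 time in Top2a and 2 times in Cdk1, against 16.2% of all promoters with at least 1. At least 3 CCAAT together with TTTGAA occurred in 0.469% of promoters, among them these 3. The pattern is the one these 3 genes hold, so its share is a description and not a test of them. One of the TTTGAA matches of Mki67 shares its last base with an ATTGG match, and no other matches overlap. Only Cdk1 held TTTCGCGC, which is found in 0.248% of promoters. Pcna held 1 CCAAT match and Cdkn1b held 2, and neither held TTTGAA. The Cdkn1a window held none of the 3 motifs, and whether it lies at the main start of the gene was not checked. These matches describe letters only.

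The question put to the stages was whether division genes and inhibitors changed as the germ passed from bud to cap and beyond. Between E15 and E17 the level of 1 inhibitor, Cdkn1a, rose 2.82-fold and Ccnd2 rose 1.15-fold, and the other 8 genes did not pass the test. Of all 12627 genes tested, 18.3% were called in either direction and 11.3% were called higher, and the 2 of 10 genes were both higher. Median log2 change over the 10 genes was -0.02, against -0.01 over all genes tested.

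**Figure D1:**
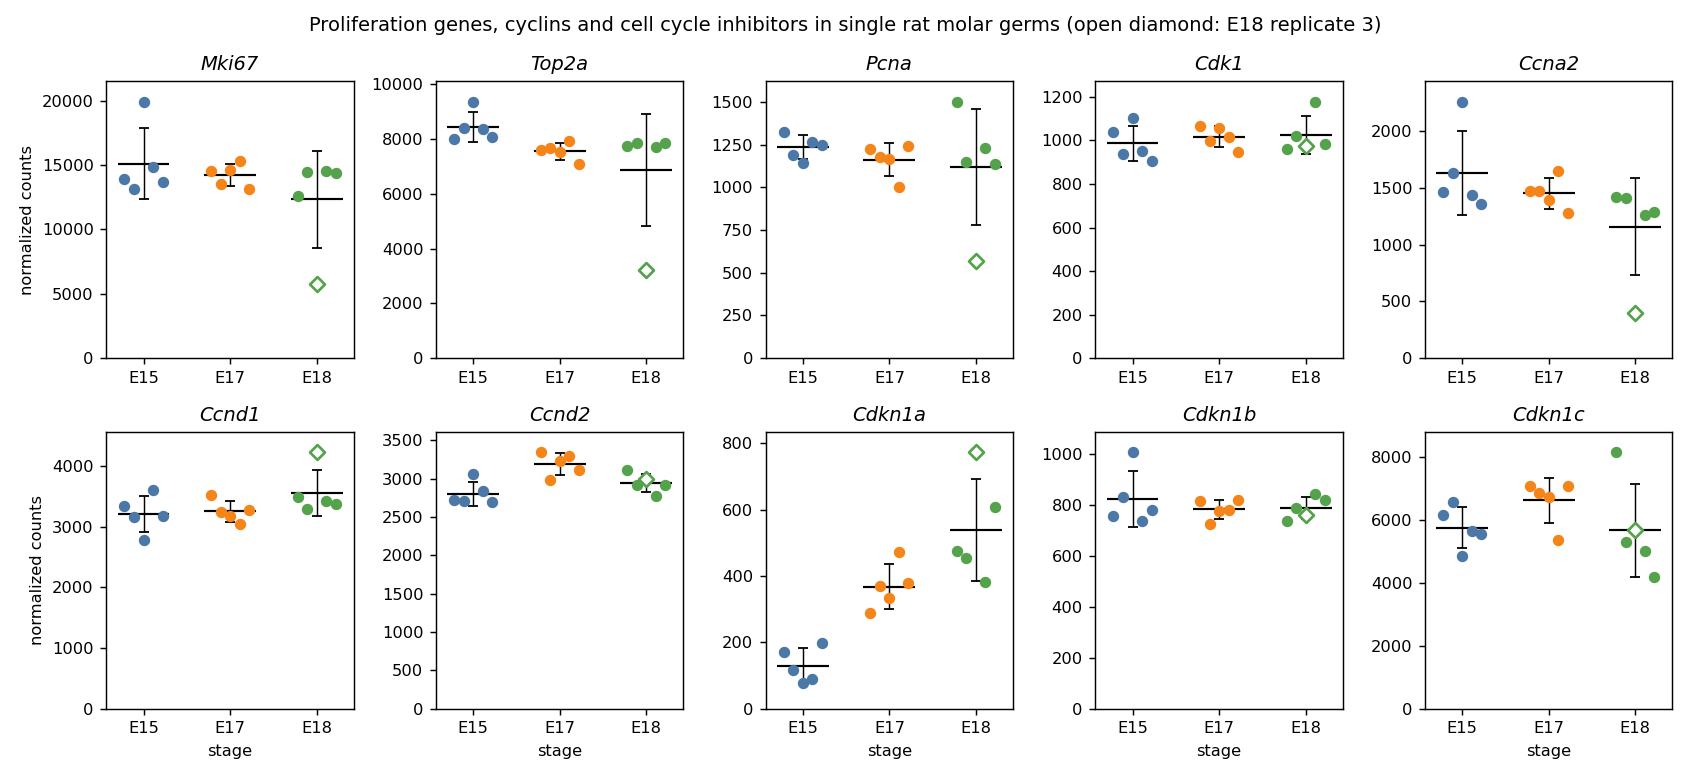
Normalized counts (y axes, starting at 0) of the 10 genes in each tooth at E15, E17 and E18 (x axes), with horizontal bars for the mean and error bars for the SD over 5 teeth. Cdkn1a is higher in every E17 and E18 tooth than in every E15 tooth, and the open diamond, E18 replicate 3, lies far below the other E18 teeth for Mki67, Top2a, Pcna and Ccna2 but not for Cdk1.

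Cdkn1a, which encodes the p21 inhibitor, had the largest log2 change of the 10 genes. Normalized counts, that is counts divided by each library's size factor, were 171, 116, 76.3, 91.1 and 197 in E15 replicates 1 to 5. At E17 they were 287, 370, 333, 474 and 378, and at E18 476, 454, 773, 382 and 609. Every E17 and E18 tooth lay above every E15 tooth, as was so for 9.23% of all genes between E15 and E17 and 12.7% between E15 and E18, while E17 and E18 overlapped. Means were 130 ± 51.8 (SD, n = 5) at E15, 368 ± 69.0 (SD, n = 5) at E17 and 539 ± 155 (SD, n = 5) at E18. The log2 change from E15 to E17 was 1.49 ± 0.23 (SE, 95% interval 0.994 to 1.996, edgeR quasi-likelihood adjusted p = 0.000635). From E15 to E18 it was 2.05 ± 0.28 (SE), a 4.14-fold difference with an edgeR adjusted p of 0.000414, and 3.68-fold without E18 replicate 3. The step from E17 to E18 was 0.55 ± 0.20 (SE, 95% interval 0.12 to 0.98) and did not pass the test after adjustment (edgeR adjusted p = 0.205). Without E18 replicate 3 this step was 0.37 ± 0.15 (SE). The lowest raw count of the gene was 65, in E15 replicate 3, with an exact Poisson interval of 50.2 to 82.8 that covers counting error only.

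The other 2 inhibitors of the family did not pass the test in any of the 3 comparisons with all teeth. Cdkn1b, which encodes p27, had a mean of 821 ± 109 (SD, n = 5) in the E15 teeth. The mean was 782 ± 37.6 (SD, n = 5) in the E17 teeth and 788 ± 42.7 (SD, n = 5) in the E18 teeth. Its log2 change from E15 to E17 was -0.06, with a 95% interval of -0.24 to 0.12, and E15 replicate 3 was the highest of the 15 teeth with 1005. Cdkn1c, which encodes p57 and is imprinted in mammals, was at 6165, 6589, 4862, 5654 and 5579 in the E15 teeth. Values at E17 were 7086, 6875, 6742, 5379 and 7101, and those at E18 were 8168, 5309, 5678, 5025 and 4201. E17 sat higher in 4 of 5 teeth, but its replicate 4 lay within the E15 range, and E18 spread over the range of both other stages. The log2 change of Cdkn1c from E15 to E17 was 0.21 ± 0.09 (SE, edgeR adjusted p = 0.127). Without E17 replicate 4 the edgeR adjusted p was 0.037, so that tooth decided the call. From E17 to E18 the log2 change was -0.23 (edgeR adjusted p = 0.528). Leaving out E18 replicate 1 alone gave -0.39 (edgeR adjusted p = 0.0936), and replicate 3 alone -0.23 (edgeR adjusted p = 0.445). Without both it was -0.46 (edgeR adjusted p = 0.00995), in a setting chosen after seeing the data that drops the highest E18 tooth.

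The D cyclins, which pair with kinases in G1 and are induced by growth signals, moved little. Ccnd2 was at 2722, 2708, 3059, 2837 and 2689 in the E15 teeth and at 3344, 2979, 3223, 3299 and 3117 in the E17 teeth. All but E15 replicate 3 lay below every E17 tooth. The log2 change was 0.20 ± 0.06 (SE, edgeR adjusted p = 0.0279), and leaving out single teeth (E15 replicate 1, 2 or 5, E17 replicate 1, 3 or 4) took the adjusted p above 0.05, up to 0.066. In the E18 teeth the mean was 2942 ± 122 (SD, n = 5), and the change from E17 was -0.12 (edgeR adjusted p = 0.397). Ccnd1 had means of 3210 ± 301 (SD, n = 5), 3250 ± 172 (SD, n = 5) and 3557 ± 381 (SD, n = 5) in the order of the stages, and its 95% interval from E15 to E17 ran from -0.12 to 0.18 on the log2 scale. With and without E18 replicate 3, the log2 change of Ccnd1 was 0.13 and 0.05 from E17 to E18, and 0.16 and 0.09 from E15 to E18.

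The 5 genes of DNA synthesis and mitosis did not pass the test in any comparison. Mki67, which encodes the Ki-67 antigen of cycling cells, was at 13918, 13123, 19921, 14832 and 13666 in the E15 teeth, 14513, 13529, 14587, 15278 and 13169 in the E17 teeth and 12583, 14418, 5756, 14560 and 14364 in the E18 teeth. Outside E15 replicate 3 and E18 replicate 3 the remaining 13 teeth overlapped from stage to stage. The change from E15 to E17 was -0.08 ± 0.10 (SE, 95% interval -0.30 to 0.14) on the log2 scale, and from E15 to E18 it was -0.28 with E18 replicate 3 and -0.10 without it. From E17 to E18 the change of Mki67 was -0.21 (95% interval -0.67 to 0.25) with that tooth and -0.03 (95% interval -0.16 to 0.10) without it. Top2a, which encodes the topoisomerase that untangles DNA in mitosis, was at 8008, 8395, 9371, 8384 and 8089 in the E15 teeth, 7614, 7661, 7518, 7940 and 7079 in the E17 teeth and 7760, 7875, 3233, 7708 and 7839 in the E18 teeth. Every E17 and E18 tooth lay below every E15 tooth, as was so for 7.04% of genes between E15 and E17 and 10.3% between E15 and E18. From E15 to E17 its log2 change was -0.15 ± 0.06 (SE, edgeR adjusted p = 0.0867, DESeq2 adjusted p = 0.0327). From E15 to E18 it was -0.29 (95% interval -0.74 to 0.16, edgeR adjusted p = 0.350) with all 5 E18 teeth and -0.10 (95% interval -0.24 to 0.03, edgeR adjusted p = 0.247) without replicate 3. From E17 to E18 Top2a was at -0.14 with that tooth and at 0.04 without it.

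Pcna, the sliding clamp of DNA polymerase, had means of 1235 ± 70.2 (SD, n = 5) in the E15 teeth and 1163 ± 96.0 (SD, n = 5) in the E17 teeth, and its E18 teeth were at 1503, 1151, 571, 1232 and 1140. The log2 change of Pcna from E15 to E18 was -0.13 with all 5 E18 teeth and 0.04 without replicate 3, and from E17 to E18 it was -0.05 and 0.11. Cdk1, the kinase that drives entry into mitosis, ranged from 906 to 1178 over all 15 teeth, and its 95% interval from E15 to E17 was -0.09 to 0.20. Ccna2, the cyclin of S phase and G2, was at 1468, 1636, 2263, 1437 and 1361 in the E15 teeth, 1472, 1472, 1393, 1650 and 1280 in the E17 teeth and 1420, 1415, 402, 1264 and 1289 in the E18 teeth. Its log2 change from E15 to E18 was -0.49 with all 5 E18 teeth and -0.27 without replicate 3 (95% interval -0.56 to 0.03), and from E17 to E18 it was -0.33 and -0.12.

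**Figure D2:**
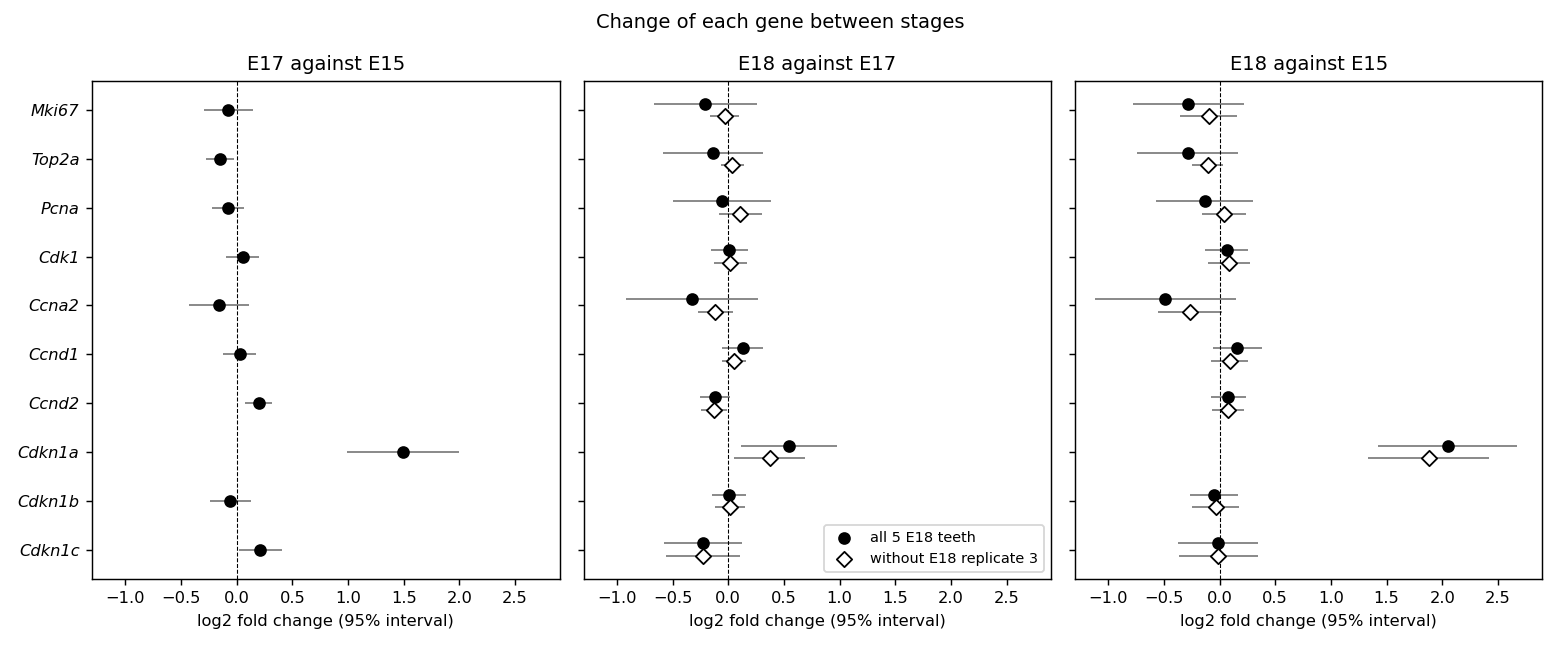
Log2 fold change (x axis, with 95% intervals) of each gene (y axis) between stages, with all 5 E18 teeth (filled circles) and without E18 replicate 3 (open diamonds). Cdkn1a is at 1.49 from E15 to E17 and at 2.05 from E15 to E18, the intervals of Mki67, Top2a, Pcna and Ccna2 narrow when replicate 3 is left out, and Ccnd2, Top2a and Cdkn1c from E15 to E17 are the other genes whose interval leaves out 0 with all teeth.

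From E17 to E18, 0 of the 10 genes passed edgeR's test at an adjusted p under 0.05, where 2.54% of all genes did, and 1 gene, Cdkn1a, had an unadjusted p under 0.05. Without E18 replicate 3 the count was again 0, against 5.57% of all genes, with 2 genes, Cdkn1a and Ccnd2, at an unadjusted p under 0.05. DESeq2 also called 0. From E15 to E18, 1 gene (Cdkn1a) passed, against 21% of all genes, and 28% without replicate 3. The comparisons share their stages, so their results are not independent of each other.

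In E18 replicate 3 the division genes did not deviate as a block. Against the mean log2 level of the other E18 teeth, Mki67 deviated by -1.28, Top2a by -1.27, Pcna by -1.13 and Ccna2 by -1.74. Of 11219 genes, 13.1%, 13.2%, 15.3% and 8.81% deviated further down in this library than these 4 genes. Cdk1 deviated by -0.08, Ccnd2 by 0.03, Cdkn1b by -0.07 and Cdkn1c by 0.05, all close to the other teeth. Cdkn1a deviated upward by 0.71, more than 97.1% of genes, and Ccnd1 by 0.32. The low values of the 4 genes moved with a library in which many genes were low, and its part in their values was not tested. E15 replicate 3 deviated the other way for Mki67 (0.52) and Ccna2 (0.62), with Cdkn1a at -0.84 and Cdkn1b at 0.38.

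**Figure D3:**
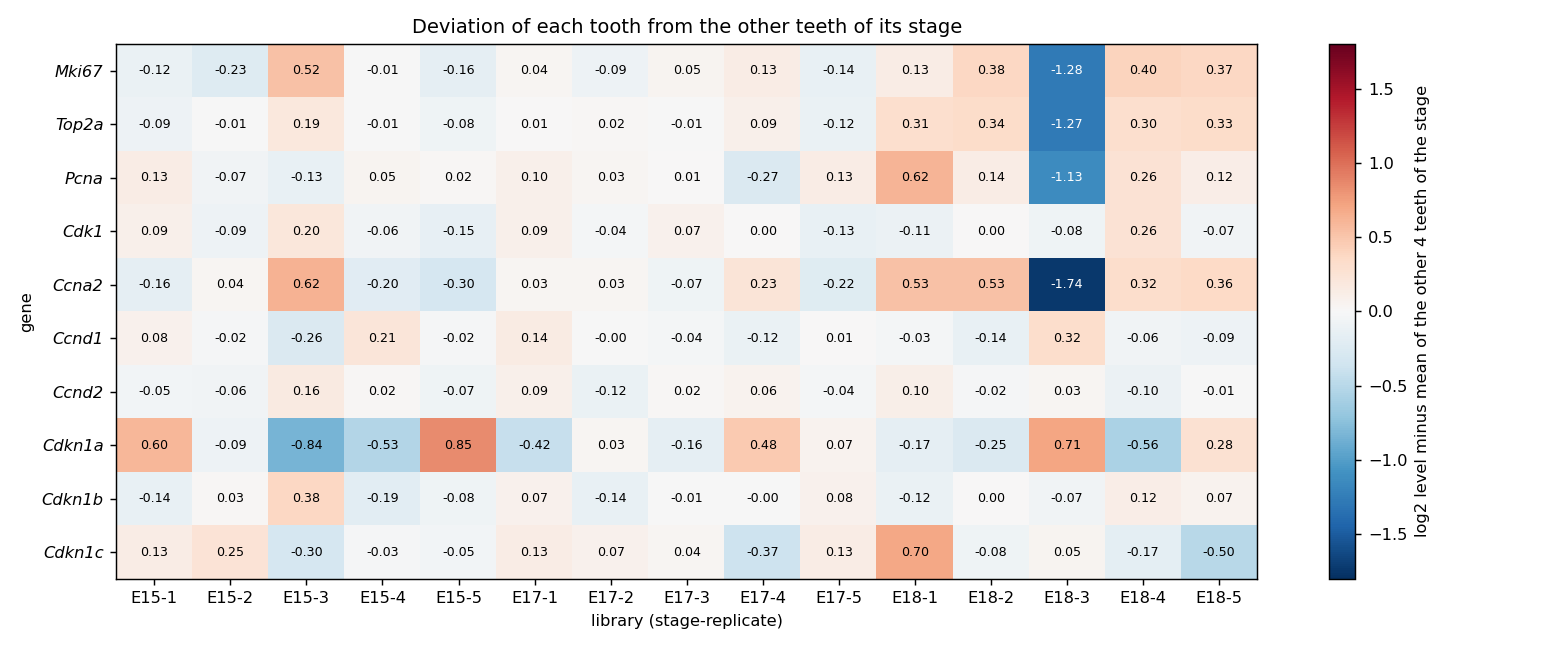
Deviation on the log2 scale of each gene (rows) in each tooth (columns) from the mean of the other 4 teeth of its stage, in red above and in blue below. The column of E18 replicate 3 is deep blue for Mki67, Top2a, Pcna and Ccna2 (-1.13 to -1.74), pale for Cdk1 (-0.08) and red for Cdkn1a (0.71).

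The spread between teeth of a stage gives the scale for these values. The median coefficient of variation over 11219 genes was 12.3% at E15, 8.73% at E17 and 17.3% at E18, falling to 9.29% at E18 without replicate 3. Cdkn1a was the most variable gene of the set at E15, with 39.8%, and Top2a without E18 replicate 3 was the least, with 0.967%. Left and right teeth did not differ by the test for any of the 10 genes, nor for any of 13013 genes by edgeR, where 0% passed and 119 genes had an unadjusted p under 0.05. The 119 genes are a smaller share than the 0.05 to be expected where no gene differs, so the lack of calls says little about the sides. The left to right differences of the 10 genes ran from -0.13 to 0.17 on the log2 scale. That test included E18 replicate 3 and was not run without it, so small differences between sides may have been missed. The left and right teeth of the 1 E17 embryo were closer to each other than the median of the other pairs for 5 of the 10 genes.

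Genes of the primary enamel knot, which include signals such as Shh, were set beside Cdkn1a. Of 16 such genes, 15 were tested from E15 to E17 and 7 passed, 6 higher and 1 lower, where 18.3% of all genes passed and 11.3% were higher, with a median of 0.65 against -0.01 for all genes. Shh, a signal from the knot, rose by 4.57 ± 0.51 log2 units (SE, from 16.4 to 418 normalized counts, edgeR adjusted p = 5.2e-05). Wnt10a, a WNT ligand, rose by 1.33 ± 0.12 (SE, edgeR adjusted p = 8.33e-06) and Slit1, a guidance molecule, by 1.17 ± 0.24 (SE, edgeR adjusted p = 0.00418). The gene that passed as lower was Bmp2, at -0.45 ± 0.11 (SE, edgeR adjusted p = 0.0115), and 8 of the 15 did not pass. From E17 to E18, 4 of 16 passed, of which Shh, Msx2 and Edar were higher and Bmp2 lower, where 2.54% of all genes passed, and the median was 0.30. Without E18 replicate 3 the count was also 4, against 5.57% of all genes.

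**Figure D4:**
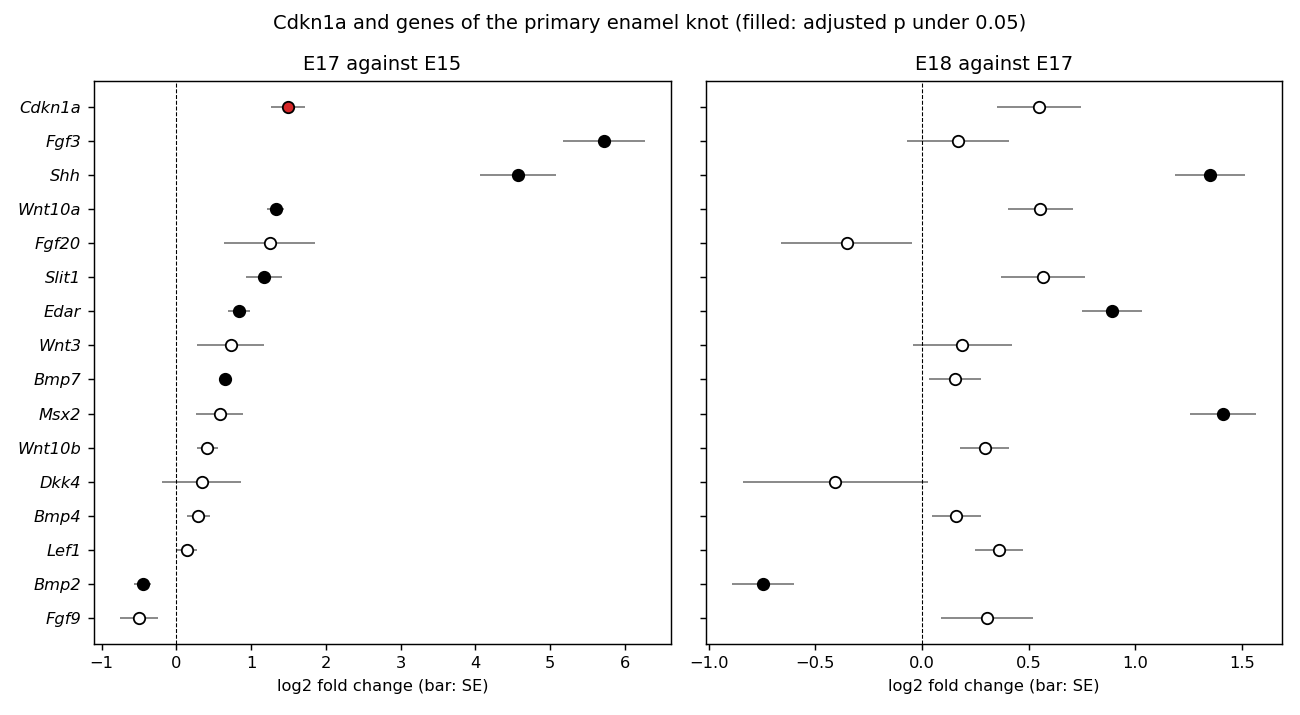
Log2 fold change with SE bars (x axes) of Cdkn1a (red where it passed the test) and of enamel knot genes (y axis) from E15 to E17 (left) and from E17 to E18 (right). Filled points passed the test at an adjusted p under 0.05: Cdkn1a and 7 others at E17, and 4 enamel knot genes but not Cdkn1a at E18.

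Epithelial markers moved in the same direction as Cdkn1a. All 7 matched markers were higher at E17 than at E15 by edgeR, and their summed level was 9353 ± 862 (SD, n = 5) for E15, 14583 ± 687 (SD, n = 5) for E17 and 18889 ± 1515 (SD, n = 5) for E18. Per 1000 counts of that sum, Cdkn1a was at 13.8 ± 4.86 (SD, n = 5) at E15, with teeth from 7.63 to 19.97. It was at 25.3 ± 4.75 (SD, n = 5) at E17, with teeth from 18.9 to 31.3, and at 28.7 ± 8.45 (SD, n = 5) at E18, with teeth from 20.5 to 41.8. The part of the rise of either set of markers, epithelial or mesenchymal, in the level of Cdkn1a was not tested. The mesenchymal markers were mixed from E15 to E17, with 3 of 9 higher and 4 lower. On the log2 scale, Col1a1 (1.19), Dcn (0.92) and Postn (0.34) were higher. Lhx8 (-0.67), Msx1 (-0.42), Lhx6 (-0.34) and Pdgfra (-0.27) were lower. Their summed level also rose, from 135245 ± 32438 (SD, n = 5) at E15 to 246136 ± 49206 (SD, n = 5) at E17. At E18 the sum was 279622 ± 29437 (SD, n = 5). Most of it was Col1a1, with means of 87435, 198559 and 240282 in the order of the stages.

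Of 10 growth control genes drawn from the study's tables, 9 had a row, and 1 of the 9 passed the test from E15 to E17, Myb, a transcription factor of dividing progenitor cells, at 1.01 ± 0.30 (SE, edgeR adjusted p = 0.0304). That is 1 of 9 where 18.3% of all genes passed. The median of the list was -0.10, against -0.01 for all genes. From E17 to E18, 0 of the 9 passed, against 2.54% of all genes, with a median of -0.05 against -0.02 for all genes. From E15 to E18 it was 1 of 9, again Myb, at 1.30, where 21% of all genes passed. Without E18 replicate 3 it was 2 of 9, with Gas1, a growth arrest gene, at -0.61, where 28% of all genes passed, so the list was called no more often than all genes in these counts.

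Likeness to Cdkn1a was measured as Pearson's r of the log2 level over the 15 libraries among 338 genes with a symbol. The 5 genes most like it were Lfng (r = 0.955), Sdc4 (0.951), Wnt10a (0.946), Cspg4 (0.945) and Ndrg1 (0.943), and their r without E18 replicate 3 ran from 0.936 to 0.954. Without that tooth the 5 closest were Sdc4 (0.954), Lfng (0.948), Wnt4 (0.945), Col1a1 (0.940), which is a mesenchymal marker here, and Ndrg1 (0.939), so 3 of the 5 were shared. For Mki67 they were Tjp1 (r = 0.967), Ccna2 (0.960), Top2a (0.956), Stil (0.947) and Gsk3b (0.944), with r from 0.691 to 0.848 without E18 replicate 3. The points share a stage and depth and are given as a description.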

How the data were processed

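Each tooth germ was homogenised singly, total RNA was extracted with TRI Reagent and purified, and libraries were made with the Ovation Rat RNAseq System. The deposited table holds estimated counts per gene for 15 libraries, written as whole numbers under mouse Ensembl identifiers. The submitters' processing notes name FastQC, Trimmomatic, Salmon 0.99.0 and DESeq2 with build Rnor_6.0 for the E18 libraries. How mouse identifiers were assigned to rat genes is not given in the sources used here. A second table of counts per rat identifier was not used here, because no reference paired its identifiers with symbols.

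Estimated counts deposited by the authors were tested with edgeR 4.0.16 in R 4.3.3: TMM scaling, filterByExpr and the quasi-likelihood test between the libraries of 2 stages, with Benjamini-Hochberg adjustment over all genes tested and a threshold of 0.05. The left against right test used all 15 libraries with stage as a term. Levels are counts divided by DESeq2 1.42.0 size factors. SE and 95% intervals come from the test. The edgeR step was tested on simulated data first. Symbols came from 408 pairs with an identifier, 365 with a row, taken from the study's tables and from the identifiers set for the 10 genes. Lists outside the study's tables (cyclins and kinases, S phase, G2/M, p53 targets and the markers of blood, muscle, endothelium, macrophages, glia and nerve, cartilage and bone) were therefore not analysed here. Members, lists and tests were chosen with earlier results of these data known. The named genes were the 10 members, up to 3 called genes of each list by change from E15 to E17 with both means of at least 10, and the 5 genes most like Cdkn1a and Mki67. The mesenchymal markers, Msx2, Edar, Bmp2 and Gas1 were named after their values were seen. Replicates are separate teeth, and 30 pairs of libraries within stages all differed by more than counting noise. Alternatives were DESeq2, other scaling and filters, side as a term, all libraries in a single fit, the teeth of 1 embryo summed, and single teeth left out. An alternative without E15 replicate 3 and E18 replicates 1 and 3 was chosen after seeing the data.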

Additional observations from a re-analysis of the deposited data

Results flagged for a closer look

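Over 30 groups of 5 teeth (10 genes at 3 stages), 8 values lay apart from the other 4 by Dixon's criterion, where about 1.5 are to be expected by chance. In E18 replicate 3, Mki67 was at 5756, Top2a at 3233 and Ccna2 at 402 normalized counts, the lowest of their stage, and Ccnd1 at 4226, the highest. In E15 replicate 3, Mki67 was at 19921 and Top2a at 9371, the highest of their stage. Cdk1 was at 1178 in E18 replicate 4, the highest of its stage. Cdkn1c was at 5379 in E17 replicate 4, the lowest of its stage.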

How the results depend on the processing

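Cdkn1a kept its direction and its call from E15 to E17 (1.36 to 1.67 on the log2 scale) under 18 alternatives and from E15 to E18 (1.74 to 2.24) under 17. The count of called genes from E15 to E17 was 1 to 2 with single teeth left out. Without E15 replicate 3 and E18 replicates 1 and 3, 1 gene was called from E17 to E18 (Cdkn1c, -0.46, edgeR adjusted p = 0.00995) and 2 from E15 to E18 (Cdkn1a and Cdkn1c, the latter at -0.30). In that setting log2 changes that turned direction, none of them called, were Mki67 0.044, Ccnd1 -0.021 and Cdkn1b 0.024 from E15 to E17, Mki67 0.015, Top2a 0.037 and Pcna 0.0064 from E17 to E18, and Mki67 0.064 and Cdkn1b 0.080 from E15 to E18. With DESeq2, Cdkn1b was at -0.00084 from E17 to E18, and Top2a was called from E15 to E17 (-0.16, adjusted p = 0.0327). With single teeth left out, these uncalled changes ranged across 0: from E15 to E17, Mki67 -0.12 to 0.044, Ccnd1 -0.021 to 0.069 and Cdkn1b -0.098 to 0.024; from E17 to E18, Cdkn1b -0.019 to 0.031, Cdk1 -0.046 to 0.031, Top2a -0.19 to 0.036 and Pcna -0.19 to 0.11; from E15 to E18, Cdkn1c -0.18 to 0.081, Cdkn1b -0.089 to 0.034 and Pcna -0.26 to 0.038. The causes were not tested. No paired analysis was possible because each number here only names a tooth and pairs none across stages. The alternative on the second count table was not run, since its identifiers could not be paired with symbols.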
